A study of Homo sapiens with 4 samples.

Results

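ABCB6, a membrane transporter of the ATP-binding cassette family, was followed beside 7 of the enzymes that make heme and the heme exporter FLVCR1, in human 293FT cells whose NIPBL was labelled wild type or mutant. These 9 genes (ABCB6, ALAS1, ALAD, UROS, UROD, CPOX, PPOX, FECH and FLVCR1) were taken by symbol from the 58174 genes in the deposited tables, and all 9 were found and passed the filter on low counts. The set was chosen by the measured fall of ABCB6 in these mutant libraries, with the pathway set beside it, so the difference between genotypes at the 9 genes is given as a description with no test. 293FT is a quick-growing human embryonic kidney line with a stably expressed viral large T antigen. The 4 libraries were 2 labelled NIPBLwt and 2 labelled NIPBLmut, with replicates numbered 1 and 2 in each. All were grown in serum-containing DMEM with no treatment named, and total RNA was depleted of ribosomal RNA before sequencing. NIPBL encodes the protein that loads cohesin onto chromosomes, and the title of the series names Cornelia de Lange and CHOPS syndromes. The labels do not give the kind of mutation, the number of clones, or whether replicates were separate cultures, so p-values measure only the spread between these libraries, which may be technical.

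Heme is an iron-bearing ring held by proteins such as cytochromes and catalase. Its synthesis starts in the mitochondrion, where ALAS1 joins glycine to succinyl-CoA, moves to the cytosol, where ALAD, UROS and UROD help to build and trim the ring, and returns to the mitochondrion, where CPOX, PPOX and FECH finish it and FECH inserts the iron. ABCB6 has been described as a carrier of porphyrins, the ring intermediates, and also carries the Langereis blood group antigen on red cells; the membrane in which it acts has been placed differently by different studies. FLVCR1 was described as an exporter of heme and later also as a choline transporter.

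The region around the start of a gene is where its transcription begins, and the windows of ABCB6, of UROD and of ALAS1 are shown because ABCB6 and UROD were the members lower in both mutant libraries with the smallest spread, while ALAS1 holds the first and usually limiting step. Each runs from 250 bases before to 50 bases after the RefSeq start on GRCh38.p14, 5′ to 3′ on the strand of the gene, and lies at chr2:219218909-219219208, minus strand for ABCB6, chr1:45012004-45012303, plus strand for UROD and chr3:52197833-52198132, plus strand for ALAS1. Capitals mark matches to the motifs named after the sequences.

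ABCB6: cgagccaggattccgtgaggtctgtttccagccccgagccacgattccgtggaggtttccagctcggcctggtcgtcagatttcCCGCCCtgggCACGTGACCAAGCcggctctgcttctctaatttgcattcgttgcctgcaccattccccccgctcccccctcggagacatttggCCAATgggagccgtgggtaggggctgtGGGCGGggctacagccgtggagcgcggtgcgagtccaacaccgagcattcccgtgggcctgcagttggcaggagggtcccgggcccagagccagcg

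UROD: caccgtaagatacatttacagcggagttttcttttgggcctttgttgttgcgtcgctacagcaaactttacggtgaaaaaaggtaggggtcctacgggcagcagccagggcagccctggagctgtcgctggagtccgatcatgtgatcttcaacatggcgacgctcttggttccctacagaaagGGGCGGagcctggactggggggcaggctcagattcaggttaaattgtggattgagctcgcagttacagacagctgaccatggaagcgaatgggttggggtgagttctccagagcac

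ALAS1: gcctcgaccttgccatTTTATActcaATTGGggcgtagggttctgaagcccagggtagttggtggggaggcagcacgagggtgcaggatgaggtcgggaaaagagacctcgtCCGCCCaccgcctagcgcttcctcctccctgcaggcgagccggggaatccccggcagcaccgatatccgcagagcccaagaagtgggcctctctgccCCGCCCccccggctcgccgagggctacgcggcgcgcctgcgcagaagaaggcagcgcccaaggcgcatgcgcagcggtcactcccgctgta

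The motifs searched on both strands were the E-box core CACGTG, the CCAAT box, the GC box GGGCGG, the TATA box TATAAA and the antioxidant response element core TGACNNNGC. RefSeq windows were matched for 8 of the 9 members; UROS was not matched. In ABCB6 the E-box core began 156 bases before the start and overlapped by its last bases the antioxidant element core that began 152 bases before it, and a CCAAT box began 73 bases before it. The E-box core was in 7.43% of 27305 RefSeq windows of this length and in ABCB6 only among the 8 members matched. The antioxidant element core was in 13.6% of all windows and in ABCB6 and FECH among the members. GC boxes were in 7 of the 8 members, all but PPOX, and in 44.6% of all windows. CCAAT boxes were in ABCB6, ALAS1, ALAD, PPOX and FLVCR1, and in 35.7% of all windows. The TATA box was in ALAS1 alone of the 8, read on the other strand 234 bases before the start, and in 11.95% of all windows. The G and C content was 65.7% for ABCB6, 54.0% for UROD and 67.0% for ALAS1, against a median of 58.3% over all windows. A match is a description of letters and was not tied to binding of a factor.

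Reads per gene, estimated by RSEM and deposited under the name of expected counts, summed to between 31545743 and 33161120 per library. Levels are given as CPM, counts relative to the library total after TMM scaling (trimmed mean of M values), for the comparison of a gene between libraries, and as the deposited TPM, which also divides by transcript length, for the comparison of genes with each other. At this depth 1 count was between 0.0287 and 0.0335 CPM. NIPBL itself was at 41.8 and 44.4 CPM in the wild-type pair and at 61.0 and 62.0 CPM in the mutant pair (edgeR adjusted p = 0.057), which does not check the labels, as the type of mutation is unknown here. Of 8 genes known from the 293 lineage, 7 were at 17.48 TPM or more in both wild-type libraries, and the kidney gene PAX2 was at 0.28 and 0.13 TPM. Of these 8, edgeR called KRT8 higher in the mutant (log2 fold change 0.83, adjusted p = 0.0295) and VIM (-0.60, 0.0467), LIN28B (-1.20, 0.0369) and NEFM (-5.98, 0.0086) lower, and NEFM was left at 0.45 and 0.30 TPM. Markers of the red cell lineage, in which heme synthesis is most active, summed to between 2.32 and 5.73 TPM per library over 16 genes, of which 6, HBB, HBG1 and GATA1 among them, had no counts in any library. The erythroid enzyme ALAS2 also had none, which allows up to 3 counts per library, or 0.0862 to 0.1004 CPM, with counting error only considered. Of the 16 markers EPOR was highest, at 2.83 and 1.47 TPM in wild-type and 2.90 and 3.32 TPM in mutant libraries. HBA1 followed, at 0.73 and 0.68 TPM in wild-type and 1.16 and 1.68 TPM in mutant libraries.

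ABCB6 (ENSG00000115657, chromosome 2, 219209766 to 219219017, minus strand) was at 15.2 and 14.8 CPM in wild-type replicates 1 and 2 and at 0.858 and 0.776 CPM in mutant replicates 1 and 2. Both mutant libraries lay far below both wild-type libraries, and the libraries of each genotype were close to each other. In expected counts these levels were 471.9 and 441.1 against 28.6 and 26.7. The mutant mean was 5.45% of the wild-type mean (0.817 ± 0.0582 against 14.99 ± 0.322 CPM, SD, n = 2 each), an 18.3-fold difference with a log2 fold change of -4.19 (SE 0.20). On the deposited TPM scale the level went from 6.60 ± 0.438 to 0.595 ± 0.120. In bulk RNA, fewer cells with the transcript and less transcript per cell cannot be told apart.

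The estimated length of ABCB6 transcripts was also lower in both mutant libraries. RSEM's isoform-weighted length of ABCB6, the mean length of its transcripts weighted by their estimated share, was 1776 and 1810 bases in the wild-type and 1150 and 1375 bases in the mutant libraries. The groups did not overlap, but each mutant value rests on fewer than 30 counts. Lengths did not overlap either for UROS (1267 and 1245 against 1200 and 1177 bases) and UROD (1075 and 1077 against 1069 and 1042). The same held for PPOX (904 and 868 against 962 and 994), longer in the mutant. Those of ALAS1, ALAD, CPOX, FECH and FLVCR1 overlapped. The share over all genes is not given here, so no shift particular to ABCB6 is read from its lengths. GENCODE 29 lists 13 ABCB6 transcripts that the deposited tables also name. The 2 coding ones are 2878 and 3045 bases long, the 4 marked for nonsense-mediated decay 544 to 882 bases, and the 7 with retained introns 552 to 3008 bases. With the effective lengths as offsets in the fit, the log2 fold change was -3.65. A second annotated gene, AC068946.2, covers most of ABCB6 on the same strand and reaches into ATG9A. It was not among the rows analysed here, so reads of this pair were not told apart.

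ALAS1 (ENSG00000023330, chromosome 3, 52198086 to 52214327, plus strand), the enzyme of the first step, was at 46.1 and 66.8 CPM in the wild-type pair and at 62.0 and 60.3 CPM in the mutant pair. The mutant libraries lay between the wild-type ones, so the groups overlapped. The log2 fold change was 0.12 (SE 0.19), and -0.14 without wild-type replicate 1 against 0.41 without wild-type replicate 2. ALAD (ENSG00000148218, chromosome 9, 113386317 to 113401333, minus strand), which joins pairs of aminolevulinate into porphobilinogen, was at 15.5 and 12.8 CPM in the wild-type pair and at 16.8 and 16.4 CPM in the mutant pair. Its groups did not overlap, but the gap between them was smaller than the gap within the wild-type pair (log2 fold change 0.23, SE 0.15).

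UROS (ENSG00000188690, chromosome 10, 125784980 to 125823285, minus strand), which closes the ring, was at 57.2 and 52.5 CPM in the wild-type pair and at 64.4 and 66.9 CPM in the mutant pair. Both mutant values were above both wild-type values, and the log2 fold change was 0.26 (SE 0.11). UROD (ENSG00000126088, chromosome 1, 45012147 to 45015575, plus strand), which removes carboxyl groups from the ring, was at 148 and 144 CPM in the wild-type pair and at 100.5 and 99.0 CPM in the mutant pair. UROD was lower in both mutant libraries, at 68.3% of the wild-type mean, with a log2 fold change of -0.55 (SE 0.11), or -0.38 with total counts and -0.32 on log2(TPM + 1). These neighbouring steps of the pathway thus had differences of opposite sign in these libraries.

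CPOX (ENSG00000080819, chromosome 3, 98579446 to 98593723, minus strand), the first of the late mitochondrial enzymes, was at 69.8 and 80.6 CPM in the wild-type pair and at 71.2 and 70.4 CPM in the mutant pair. These values overlapped (log2 fold change -0.09, SE 0.12), and the sign turned with total counts (0.09) and on log2(TPM + 1) (0.07). CPOX overlaps the gene AC021660.3 on the same strand, which was not among the rows analysed here. PPOX (ENSG00000143224, chromosome 1, 161166410 to 161178013, plus strand), which oxidises the ring, was at 19.8 and 13.3 CPM in the wild-type pair and at 21.2 and 22.6 CPM in the mutant pair. Its groups did not overlap, with a log2 fold change of 0.40 (SE 0.21), but wild-type replicate 1 lay nearer to the mutant libraries than to wild-type replicate 2, and the value was 0.70 without wild-type replicate 1 and 0.14 without wild-type replicate 2. PPOX overlaps B4GALT3 on the other strand, and since the strand setting of the counting is not given, reads of this pair may not have been told apart. B4GALT3 had 989 and 1106 counts in wild-type and 1392 and 1353 counts in mutant libraries. FECH (ENSG00000066926, chromosome 18, 57548283 to 57586772, minus strand), which inserts the iron, was at 65.2 and 52.2 CPM in the wild-type pair and at 66.1 and 63.4 CPM in the mutant pair. Its groups overlapped (log2 fold change 0.14, SE 0.14), and the value was -0.01 without wild-type replicate 2.

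FLVCR1 (ENSG00000162769, chromosome 1, 212858255 to 212899363, plus strand) was at 36.1 and 52.1 CPM in the wild-type pair and at 24.7 and 26.4 CPM in the mutant pair. Both mutant libraries lay below both wild-type libraries, and the wild-type libraries differed from each other by more than the mutant ones did. The log2 fold change was -0.79 (SE 0.20), with -1.04 without wild-type replicate 1 and -0.50 without wild-type replicate 2. It was -0.51 on log2(TPM + 1).

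**Figure D1:**
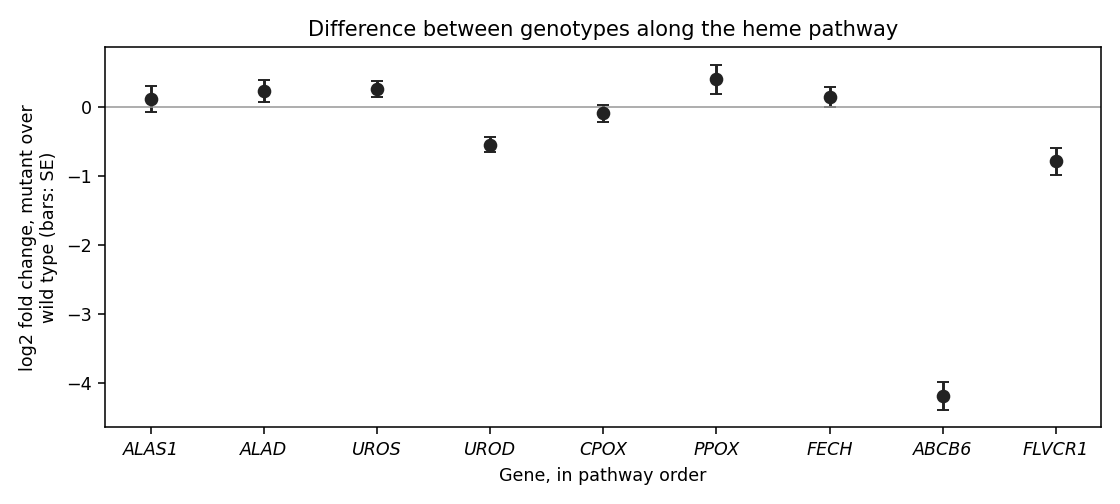
log2 fold change of mutant over wild type (vertical axis) for the 9 members in pathway order, with bars for the standard error of the edgeR fit. ABCB6 stands at -4.19, while the other genes lie between -0.79 (FLVCR1) and 0.40 (PPOX).

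Over the 9 members, the groups did not overlap at 6 genes, 3 lower in the mutant (ABCB6, UROD and FLVCR1) and 3 higher (ALAD, UROS and PPOX), where 63.2% of the 18984 tested genes did not overlap and 30.8% did so with the mutant lower. At a Benjamini-Hochberg adjusted p under 0.05 over all tested genes, edgeR called 5.81% of the tested genes in either direction, 2.1% lower and 3.71% higher. Since the set was chosen with this contrast known, calls of the members are not given. For the same reason nothing is read from the counts of members whose groups did not overlap. Without ABCB6, the median log2 fold change of the other 8 members was 0.13, against -0.01 over all tested genes. With total counts the median of these 8 was 0.30, against 0.17 over all tested genes. On log2(TPM + 1) it was 0.34, against 0.12. Only CPOX among the 9 members changed sign between the scalings.

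The members also differed in how closely their libraries matched. Replicate 2 minus replicate 1 on the log2(CPM + 0.5) scale ran from -0.55 (PPOX) to 0.53 (ALAS1) in wild type and from -0.09 (ABCB6) to 0.10 (PPOX) in the mutant. ALAS1, CPOX and FLVCR1 were higher in wild-type replicate 2, and the other 6 members were higher in wild-type replicate 1. ABCB6 and UROD had the smallest wild-type gaps, both at -0.04.

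**Figure D2:**
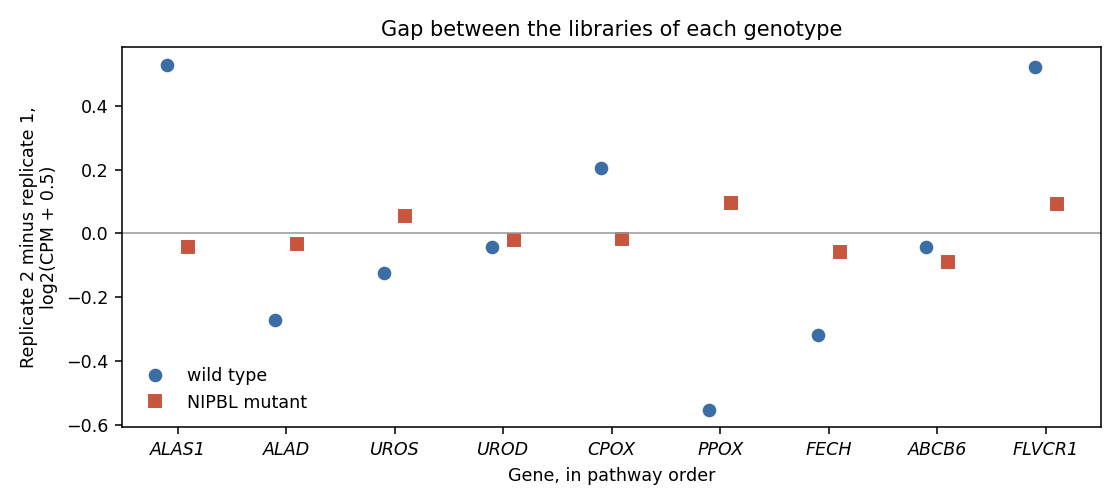
Difference between replicate 2 and replicate 1 on the log2(CPM + 0.5) scale (vertical axis) for each gene in pathway order, with circles for wild type and squares for the mutant. The wild-type gaps of the members reach from -0.55 to 0.53, and the mutant gaps stay between -0.09 and 0.10.

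Compared per transcript length, UROD was the highest of the 9 members in both genotypes, at 109.7 ± 5.93 TPM in wild type and 87.6 ± 0.912 TPM in the mutant (SD, n = 2 each). UROS was next, at 35.0 ± 2.80 and 50.9 ± 2.17 TPM, and its libraries did not overlap those of UROD in either genotype. In wild type the next 5, CPOX (23.9 TPM), FECH (22.0 TPM), ALAS1 (19.99 TPM), PPOX (15.3 TPM) and FLVCR1 (13.1 TPM), formed a run in which each overlapped the next. ABCB6 (6.60 TPM) and ALAD (5.27 TPM) were lowest there, with no overlap between their libraries. In the mutant libraries FECH (29.1 TPM), ALAS1 (25.1 TPM) and CPOX (25.04 TPM) followed UROS, with ALAS1 and CPOX overlapping. PPOX (20.9 TPM) and FLVCR1 (8.72 TPM) came next, and ABCB6 was last, at 0.595 TPM against 6.99 ± 0.891 TPM for ALAD, the next lowest.

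**Figure D3:**
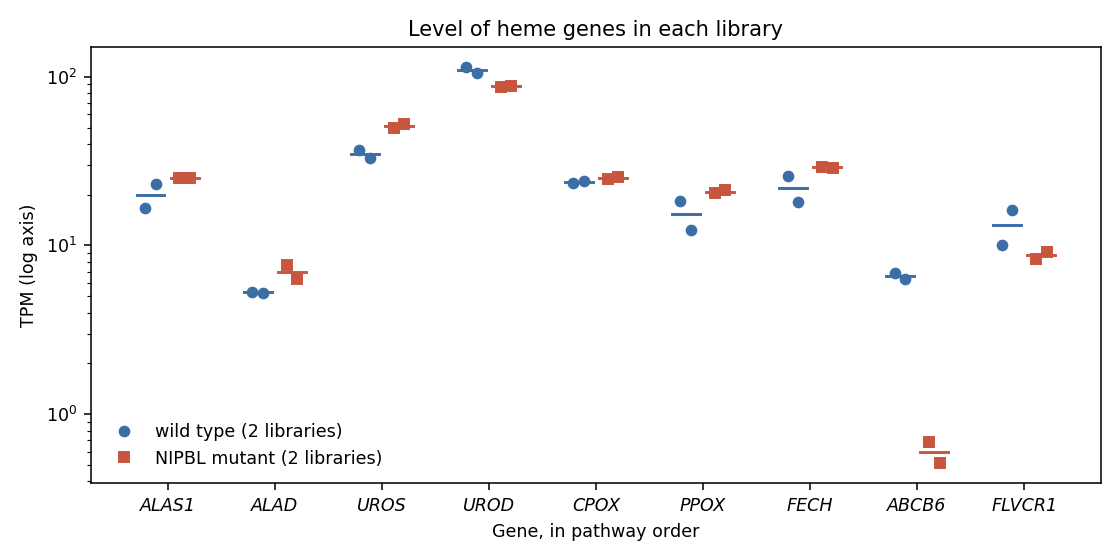
TPM on a log axis (vertical) for each gene in pathway order, with circles for the 2 wild-type and squares for the 2 mutant libraries and a short line at each mean. UROD is highest in all libraries, and ABCB6 lies between 6.29 and 6.91 TPM in wild type and at 0.68 and 0.51 TPM in the mutant.

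The genes beside ABCB6 on chromosome 2 were tested to ask whether the locus as a whole was low in the mutant. None of the 10 nearest tested protein-coding genes on each side was called lower by edgeR, and 2 of the 20 were called higher, where 2.1% of all tested genes were called lower and 3.71% higher. With a share that small, none in 20 is not read as a result about the locus. ZFAND2B, the nearest gene on the lower-coordinate side, was at 19.95 and 15.6 CPM in the wild-type pair and at 14.1 and 14.2 CPM in the mutant pair (log2 fold change -0.33, SE 0.17, edgeR adjusted p = 0.242). RETREG2, next to it, had -0.56 (adjusted p = 0.123). ATG9A, an autophagy membrane protein whose gene lies just upstream of ABCB6 on the same strand, was at 38.8 and 47.9 CPM in the wild-type pair and at 31.8 and 30.7 CPM in the mutant pair (log2 fold change -0.47, SE 0.14, edgeR adjusted p = 0.103), and ANKZF1 beyond it had -0.67 (adjusted p = 0.057).

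The called neighbours were TUBA4A, an alpha-tubulin gene, which rose from 1.10 and 1.44 to 6.15 and 5.40 CPM (log2 fold change 2.19, SE 0.26, edgeR adjusted p = 0.0274), and CRYBA2, a crystallin gene, which rose from 0.0967 and 0.201 to 1.09 and 1.06 CPM (2.83, SE 0.46, adjusted p = 0.0375) and rests on 3 and 6 counts against 37 in each mutant library. CRYBA2 lost its call when either mutant library was left out, in fits that called a smaller share of all genes. Of the 20 neighbours 11 had both mutant libraries below both wild-type libraries, as had 30.8% of all tested genes, and 10 had an unadjusted p under 0.05, as had 29.8% of all tested genes. Their median log2 fold change was -0.21, against -0.01 over all tested genes, and it was -0.31 when 25 such genes were taken to either side. The log2 fold change of ABCB6 minus the latter was -3.88. With total counts the median of the 20 was -0.04, against 0.17 over all tested genes. On log2(TPM + 1) it was -0.06, against 0.12. DESeq2, which called 12.3% of the genes it tested, and the replicate block each called ANKZF1 and CNPPD1 lower as well; CNPPD1 was named after its values were seen. ANKZF1 was called lower in 6 of the 14 other fits, among them those with effective length offsets (adjusted p = 0.04997) and with no filter (0.0325).

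**Figure D4:**
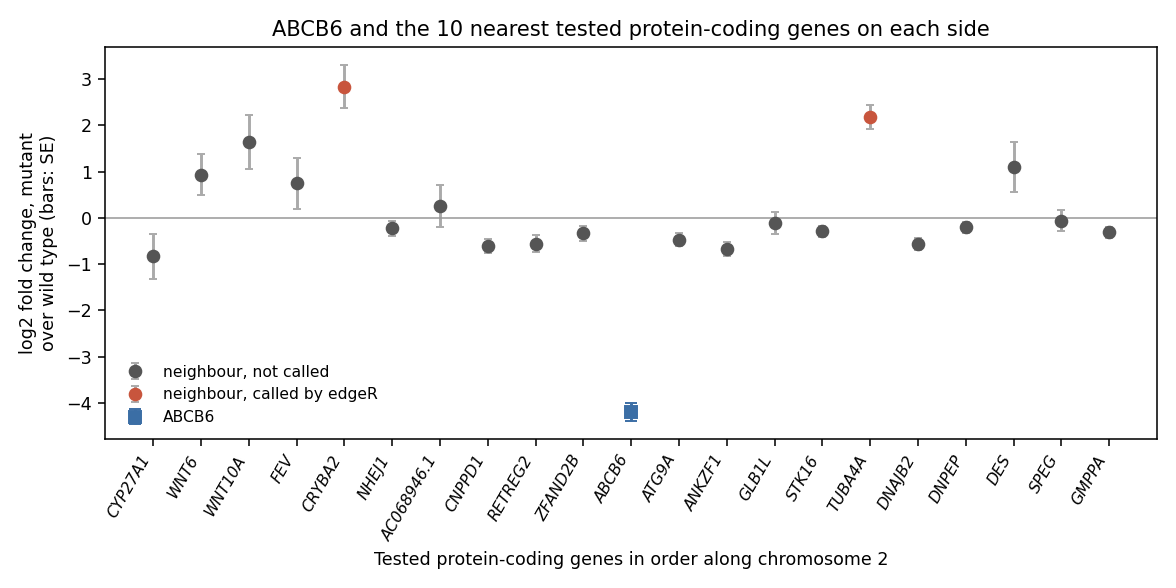
log2 fold change of mutant over wild type (vertical axis, bars for the standard error) for ABCB6 (square) and the 10 nearest tested protein-coding genes on each side in their order along chromosome 2. CRYBA2 (2.83) and TUBA4A (2.19), the called neighbours, are higher in the mutant, and no neighbour comes near the -4.19 of ABCB6.

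Of 10 other genes of ABC transporter subfamily B, 9 were tested and edgeR called none, with none at an unadjusted p under 0.05 and none called by DESeq2. ABCB1, the drug efflux pump, had 0.62 (SE 0.25, adjusted p = 0.177), and ABCB4, a phospholipid transporter, 0.46 (SE 0.45, adjusted p = 0.529). ABCB8 and ABCB10, mitochondrial members of the family, had -0.07 (SE 0.12) and -0.06 (SE 0.11) and were named after their values were seen. The median of the family was -0.07, against -0.01 over all tested genes, and its log2 fold changes ran from -0.62 to 0.62. The median turned with total counts to 0.09, with 7 of the 9 above 0, against a median of 0.17 over all tested genes.

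Around the pathway, 81 further genes of heme and iron biology in 7 lists were examined, of which 73 were tested. edgeR called 1 lower and none higher, where it called 5.81% of all tested genes, and 20 had an unadjusted p under 0.05, as had 29.8% of all tested genes. The median log2 fold change was -0.11, with 27 above and 46 below 0, against -0.01 over all tested genes. This split turned with the scaling: 42 were above and 31 below 0 with total counts (median 0.06, against 0.17 over all genes), and 46 above and 27 below on log2(TPM + 1) (median 0.06, against 0.12). The called gene was CYP51A1, a heme enzyme of cholesterol synthesis, which fell from 236 and 296 to 160.1 and 149 CPM (log2 fold change -0.79, SE 0.15, edgeR adjusted p = 0.0478). Its call was lost when either mutant library was left out, in fits that called a smaller share of all genes. The call was also lost with RLE scaling (edgeR adjusted p = 0.0504) and on log2(TPM + 1) (limma adjusted p = 0.0588). DESeq2 gave 19138 genes an adjusted p and called 12.3% of them. It fitted 78 of the 81, those with any reads, and called 4, CYP51A1 and STEAP3 lower and NFU1 and NR1D2 higher. NFU1 and NR1D2 were also called higher with total counts, with upper-quartile scaling and on either TPM scale. Neither was called with RLE scaling, effective length offsets or the replicate block.

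Genes that support heme synthesis in mitochondria, such as carriers of glycine and iron, had none of 13 called (2 at an unadjusted p under 0.05) and a median of -0.06. That median turned to 0.11 with total counts, against 0.17 over all tested genes. On log2(TPM + 1) it was 0.20, against 0.12, with 10 of the 13 above 0. SLC25A37, the iron carrier mitoferrin 1, was at 51.8 and 46.2 CPM in the wild-type pair and at 35.5 and 34.7 CPM in the mutant pair (log2 fold change -0.48, SE 0.12, edgeR adjusted p = 0.0713). PGRMC2, a heme chaperone, had -0.51 (SE 0.13, adjusted p = 0.0751). Among genes of heme transport and breakdown none of 9 tested was called (2 at an unadjusted p under 0.05), with a median of 0.18. SLC48A1, which moves heme out of lysosomes, had 0.60 (SE 0.21, adjusted p = 0.131) and the biliverdin reductase BLVRB 0.65 (SE 0.26, adjusted p = 0.164). HMOX1, the inducible heme oxygenase that breaks heme down, was at 33.1 and 115 CPM in the wild-type pair and at 30.7 and 27.9 CPM in the mutant pair. Only wild-type replicate 2 stood apart there, and the log2 fold change of -1.34 (SE 0.55, edgeR adjusted p = 0.178) was -0.18 without that library.

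Genes of iron uptake, storage and control had none of 13 tested called (3 at an unadjusted p under 0.05) and a median of -0.23, with 12 of the 13 below 0. STEAP3, which reduces iron in endosomes, was at 25.8 and 22.2 CPM in the wild-type pair and at 15.6 and 15.1 CPM in the mutant pair (log2 fold change -0.64, SE 0.14, edgeR adjusted p = 0.0564). ACO1, the iron regulatory protein 1, had -0.44 (SE 0.11, adjusted p = 0.0758), and the ferritin heavy chain FTH1 0.37 (SE 0.12, adjusted p = 0.116). With total counts 9 of the 13 were below 0, with a median of -0.06, against 0.17 over all tested genes. On log2(TPM + 1) 8 of the 13 were, with a median of -0.07, against 0.12.

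Genes of iron-sulfur cluster assembly had none of 14 called (7 at an unadjusted p under 0.05) and a median of -0.20. That median was -0.02 with total counts, against 0.17 over all tested genes, and turned to 0.05 on log2(TPM + 1), against 0.12. NFU1, which hands clusters to target enzymes, was at 38.1 and 40.9 CPM in the wild-type pair and at 57.2 and 56.6 CPM in the mutant pair (log2 fold change 0.52, SE 0.11, edgeR adjusted p = 0.0557). FDXR, ferredoxin reductase, had 0.59 (SE 0.16, adjusted p = 0.0831) and LYRM4, a partner of the sulfur donor NFS1, -0.60 (SE 0.17, adjusted p = 0.089). Heme proteins had 1 of 13 tested called, CYP51A1, and 4 at an unadjusted p under 0.05, with a median of -0.14. That median turned to 0.04 with total counts, against 0.17 over all tested genes. Cytochrome c1, CYC1, had -0.42 (SE 0.11, adjusted p = 0.0779) and the mitochondrial cytochrome b5 gene CYB5B -0.56 (SE 0.19, adjusted p = 0.125). Regulators and sensors of heme had none of 10 called (2 at an unadjusted p under 0.05), with 5 on each side of 0. The heme-binding receptor NR1D2 had 0.58 (SE 0.12, adjusted p = 0.0552), NFE2L2 -0.34 (SE 0.13, adjusted p = 0.156) and the heme-binding repressor BACH1 -0.23 (SE 0.11, adjusted p = 0.243).

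**Figure D5:**
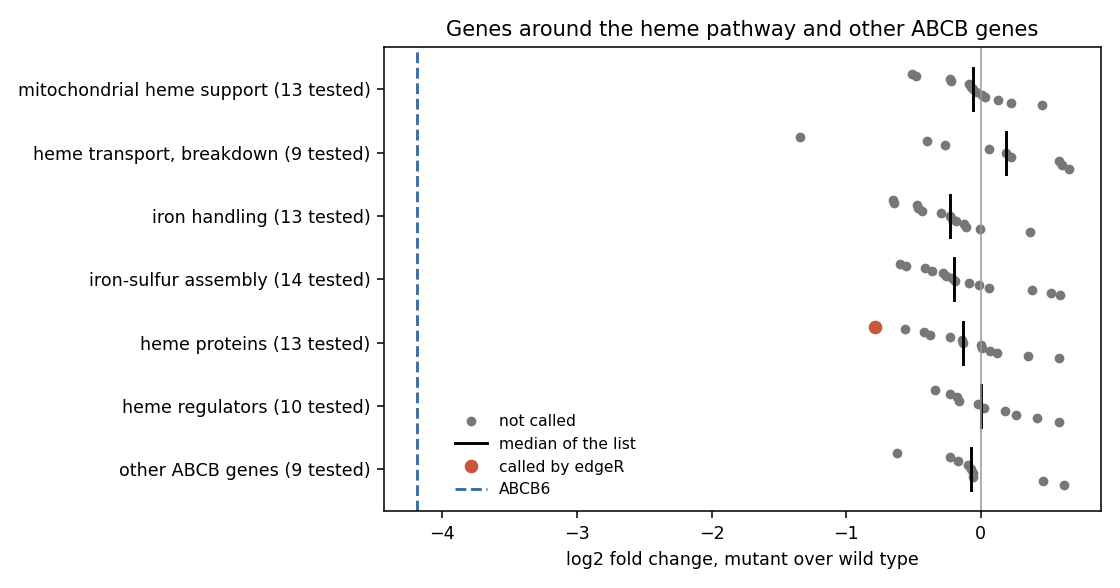
log2 fold change of mutant over wild type (horizontal axis) for each tested gene of 6 heme and iron lists and of the other ABCB genes, with a black line at each list's median and a dashed line at ABCB6. CYP51A1 (-0.79) is the called gene, and HMOX1 (-1.34) lies farthest to the left among those not called.

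The genes whose 4-library profile was most like that of ABCB6 were sought among all tested protein-coding genes by the Euclidean distance of log2(CPM + 0.5) after subtracting each gene's wild-type mean. The nearest was SLC16A14, a gene of the monocarboxylate transporter family on the same chromosome (230034974 to 230068999), which was at 9.38 and 9.14 CPM in the wild-type pair and at 0.414 and 0.575 CPM in the mutant pair, a distance of 0.43. The zinc finger gene ZFP82 on chromosome 19 followed at 0.92, from 4.29 and 5.69 to 0.148 and 0.259 CPM. DTX3, a gene of the Deltex ubiquitin ligase family, was at 1.23, the zinc finger gene ZNF331 at 1.64 and RIMBP3B at 1.77. RIMBP3B has near-identical copies, so its counts are uncertain. These genes were picked for their likeness over 4 libraries of 2 genotypes, so their fall in the mutant is part of the choice. None of the 73 heme and iron genes was among these 5. The lowest log2 fold change of the 73 was -1.34, so this absence followed from the choice and is not read as a result.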

How the data were processed

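RNA-seq libraries of 293FT cells, 2 labelled NIPBLwt and 2 NIPBLmut, were compared. Ribosomal RNA was removed and a directional kit used, per the labels' protocols. The submitters' processing notes name hg38, RSEM 1.3.1 and STAR 2.7.3a; the sources used here give neither the annotation release nor the strand setting. Per the file headers, the authors deposited expected counts, TPM, isoform-weighted length and effective length for 58174 genes per library, of which 57836 matched GENCODE 29 by identifier, the source of symbols and coordinates. Promoter windows are from RefSeq (GRCh38.p14).

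The rounded expected counts went into edgeR 4.0.16 under R 4.3.3 (filterByExpr by group, TMM, robust quasi-likelihood test, Benjamini-Hochberg over 18984 genes, called under 0.05). SE is the log2 fold change divided by the square root of F. Alternatives used RLE, upper-quartile or total-count scaling, no filter or a stricter one of 1 CPM, DESeq2 1.42.0, limma 3.58.1 (limma-trend) on log2(TPM + 1) and log2(TPM + 0.1), effective length offsets, a replicate block, each library left out, and subtraction of the median of 25 neighbours on each side.

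The members and gene lists were chosen with earlier results of these data known. Genes named were the members, every called gene of a list and otherwise the 3 with the smallest p, the nearest 2 neighbours of ABCB6 on each side and every called one, the 5 most similar profiles and the genes next to ABCB6 by fold, which are not ranked since ABCB6 was chosen on that value. Some genes that this rule names are not reported here. The libraries of each pair differed by more than counting noise (chi-square per gene 44.6 for the wild-type and 3.97 for the mutant pair), so none was taken for a library deposited a second time. In simulated data for this comparison (18984 genes, 10 draws, 200 changed genes each), 9.4% of genes changed 1.5-fold, 46.8% of those changed 2-fold, 77.8% of those changed 4-fold and 95.4% of those changed 8-fold were recovered, and 12.8% of calls were false. The simulation gave both genotypes the same spread at each gene, unlike the measured pairs, so these shares may not hold for the real libraries.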

Additional observations from a re-analysis of the deposited data

How the results depend on the processing

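As a description with no test, the log2 fold change of ABCB6, -4.19, was -3.65 with effective length offsets, -3.28 on log2(TPM + 0.1), -2.25 on log2(TPM + 1), -4.02 with total counts, -4.11 with upper-quartile scaling and -3.88 after subtracting the neighbours' median, and it ran from -4.27 to -4.12 when a library was left out. Of the other heme and iron genes, 1 was called, against 4 with DESeq2 or total counts, 3 with no filter, upper-quartile scaling or the replicate block, 2 with the stricter filter or on either TPM scale, and 0 with RLE scaling. Of all genes they tested, these fits called from 4.78% (on log2(TPM + 0.1)) to 12.3% (DESeq2). Leaving out a library gave 0 (either mutant library) to 48 of 73 (without wild-type replicate 1; 31 without wild-type replicate 2), in fits that called 59.7% and 41.9% of all genes. Of the neighbours of ABCB6, 2 were called, against 4 with DESeq2 or the replicate block, 3 with effective length offsets or no filter, 1 with the stricter filter (under which 14 of the 20 were tested), and 1 (either mutant library left out) to 13 of 20 (without wild-type replicate 1, 9 of them lower; 12 without wild-type replicate 2, 10 of them lower) in the same fits. Of the other ABCB genes, 0 were called, though some were when a wild-type library was left out. Fits without a wild-type library take their spread from the close mutant pair alone and those without a mutant library from the wider wild-type pair alone, and the lone library is assumed to vary alike. ABCB4 ran from -0.055 to 1.26 with a library left out. The cause of these changes was not tested. Over all genes, the edgeR fit called 704 higher and 399 lower, and the replicate block 1470 and 809. The numbers do not show a pairing: deviations of same-numbered libraries correlated at -0.09 across genes, which are not independent replicates.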

Other observations

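Several genes next to the heme pathway differed more between the wild-type libraries than between genotypes; they were named after their values were seen. TFRC, the transferrin receptor that brings iron into cells, was at 267 and 522 CPM in wild-type replicates 1 and 2 and at 260.3 and 240.9 CPM in mutant replicates 1 and 2 (edgeR adjusted p = 0.225). HMOX2, the constitutive heme oxygenase, was at 45.1 and 70.4 CPM in the wild-type pair and at 49.0 and 47.3 CPM in the mutant pair. FAM210B, a mitochondrial gene tied to iron import and heme synthesis in red cell precursors, went the other way, with 58.5 and 34.1 CPM in the wild-type pair and 63.7 and 63.1 CPM in the mutant pair. In these genes wild-type replicate 1 lay near the mutant libraries and wild-type replicate 2 stood apart, as it did for HMOX1.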
